A study of Mus musculus with 20 samples.

Results

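The genes described here are 10 genes that hold back or carry out programmed cell death: Bcl2, Bcl2l1, Mcl1, Bak1, Bid, Bcl2l11, Bbc3, Pmaip1, Casp2 and Aifm1, out of 18193 genes with a probe set of their own on the array. They were chosen by name with earlier results of these data known, so their counts beside those of all probe sets are descriptive only. Every probe set that the chip annotation gives to exactly 1 of them was read. That gave 29 of 34945 such probe sets. Of these, 23 were bright enough to be tested, at least 1 for each of the 10 genes.

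The study took testes of 2 inbred mouse strains, C57BL/6 and AKR/N, at 8 weeks of age, and read RNA of the whole organ on an array that holds sets of short probes, called probe sets, for each transcript. Testes of each strain were left unheated as controls or heated to 43 °C for 15 min and taken 8, 10, 12 or 24 h later. This gave 10 groups of 2 arrays each, and no allele or agent other than strain and heat is named. Because no sampling time is given for the controls, comparisons with them cannot separate heat from time. Whether the 2 arrays of a group come from different animals is not stated, so each p-value speaks only of the spread between the arrays used, which may be technical.

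In the mitochondrial pathway of apoptosis, BAX and BAK proteins open the outer mitochondrial membrane, cytochrome c leaves, and caspases are switched on. BCL2, BCL-XL (the product of Bcl2l1) and MCL1 hold these pore formers in check, and the BH3-only proteins, among them BID, BIM (Bcl2l11), PUMA (Bbc3) and NOXA (Pmaip1), lift that check or act on the pore formers directly. In the testis, germ cells are lost by apoptosis during normal spermatogenesis, and spermatocytes are known to be sensitive to heat.

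The bases just upstream of the RefSeq start are shown for the 4 genes whose heat changes are described at greatest length, so that their sequences can be read beside their time courses. Each line is 250 bases long and ends at the base before the start, 5′ to 3′ on the gene's strand, in build GRCm38.p6, whose sequence is that of C57BL/6J. For Mcl1 it is chr3:95658471-95658720 on the plus strand. For Bcl2l1, which has 3 starts in the table, it is that of the most upstream start, chr2:152831729-152831978 on the minus strand. For Bid it is chr6:120916825-120917074 and for Aifm1 chrX:48513564-48513813, both on the minus strand. Capitals mark a GC box (GGGCGG) or a CCAAT box (CCAAT) on either strand.
Mcl1: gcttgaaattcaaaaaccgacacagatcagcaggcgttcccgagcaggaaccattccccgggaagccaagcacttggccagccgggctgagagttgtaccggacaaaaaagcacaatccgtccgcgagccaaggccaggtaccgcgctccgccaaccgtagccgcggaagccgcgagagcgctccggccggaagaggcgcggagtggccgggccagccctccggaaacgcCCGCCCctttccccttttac
Bcl2l1: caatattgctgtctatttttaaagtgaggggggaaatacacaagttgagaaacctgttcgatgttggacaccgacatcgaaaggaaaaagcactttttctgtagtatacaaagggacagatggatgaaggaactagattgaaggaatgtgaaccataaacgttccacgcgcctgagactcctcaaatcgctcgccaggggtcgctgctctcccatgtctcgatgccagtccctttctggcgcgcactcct
Bid: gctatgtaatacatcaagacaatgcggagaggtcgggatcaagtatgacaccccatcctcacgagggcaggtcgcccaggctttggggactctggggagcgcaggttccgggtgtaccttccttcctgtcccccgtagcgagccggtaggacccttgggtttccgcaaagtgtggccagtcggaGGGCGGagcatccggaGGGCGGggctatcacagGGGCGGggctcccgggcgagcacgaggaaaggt
Aifm1: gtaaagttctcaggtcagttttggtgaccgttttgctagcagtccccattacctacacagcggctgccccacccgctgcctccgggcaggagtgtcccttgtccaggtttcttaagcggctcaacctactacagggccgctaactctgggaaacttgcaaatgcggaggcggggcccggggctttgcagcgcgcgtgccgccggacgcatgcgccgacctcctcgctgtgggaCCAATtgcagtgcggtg

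In these 4 windows a GC box stood upstream of Mcl1, with its first base 20 bases before the start, and 3 stood upstream of Bid, at 66, 50 and 33 bases. A CCAAT box began 17 bases before the Aifm1 start, and the Bcl2l1 window held neither motif. RefSeq windows were read for 9 of the 10 genes, all but Pmaip1, and for 14 starts in all. None of the 14 held the core of a heat shock element (GAANNTTC or TTCNNGAA), the cyclic AMP response element TGACGTCA or the AP-1 letters TGANTCA, which occur in 12.8%, 1.55% and 6.75% of the 32851 promoter windows of the same length. A GC box was in 9 of the 14 windows, of 6 genes, and a CCAAT box in 5, of 4 genes, against 32.7% and 33.8% of all windows. G and C made up 64.4%, 47.6%, 63.6% and 62% of the printed windows of Mcl1, Bcl2l1, Bid and Aifm1, and a median of 52.4% over all windows. These letters describe the windows and were not tested against the changes in signal.

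The pachytene spermatocyte and round spermatid markers gave signals of at least 24 on all arrays. Of the spermatogonia markers, Lin28a, Sall4 and Gfra1 fell to 2.33, 4.16 and 6.31 on their lowest arrays, and the others stayed at 18.7 or more. Markers of the epididymis were near the floor, with median signals of 3.91 to 9.67. The summed signal of 9 Sertoli cell markers was 5123 to 5322 in C57BL/6 controls and 8915 to 9283 at 24 h, and 5704 to 6042 against 8380 to 8451 in AKR/N. Most of this sum was Clu, with signals of 3840 to 7360 over all arrays, against 330 to 858 for Cldn11, the next highest. At 10 h it was 7104 to 7487 in C57BL/6 and 5827 to 5898 in AKR/N, and at 12 h 7896 to 8172 and 7089 to 7405. Of the 8 tested, 5 were higher at 24 h in C57BL/6 and 3 in AKR/N, with median log2 changes of 0.61 and 0.38. Amh lay between 1.26 and 13.8 throughout. The summed signal of 10 macrophage and leukocyte markers was 706 to 737 in C57BL/6 controls and 1107 to 1172 at 24 h, with 1246 to 1287 and 1705 to 1839 in AKR/N. Of the 10 pachytene spermatocyte markers, 5 were lower and 1 higher at 24 h in C57BL/6, and 2 lower and 1 higher in AKR/N. The summed signal of 5 Leydig cell markers was 1791 to 2032 in C57BL/6 controls, 3244 to 3479 at 8 h, 3352 to 3484 at 10 h, 2797 to 3393 at 12 h and 1945 to 2236 at 24 h. In AKR/N it was 3918 to 4120, 3462 to 3884, 5147 to 5295, 3945 to 4334 and 2326 to 2420, and all 5 markers were called higher in AKR/N controls than in those of C57BL/6. In whole testis, fewer cells of a type and less RNA per cell cannot be told apart, and the part of these marker shifts in the changes after heat and between the strains was not tested. The second C57BL/6 array at 12 h stood apart, with an actin 3′ to 5′ signal ratio of 3.57 against 1.87 to 2.92 on the others and the highest median signal. The member calls of that group are therefore given with and without it, while counts and medians over the members include it.

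A probe set was called when its adjusted p-value in limma, corrected by the Benjamini-Hochberg method over 28000 probe sets, was below 0.05. Of the 10 genes, 6 had a probe set called against the unheated controls at some time in at least 1 strain. Not all were called at the same time, as the heat map of the 23 tested probe sets shows. The share of all genes with such a call was not worked out. At 24 h in C57BL/6 alone limma called 17.9% of all probe sets higher and 13.1% lower. Mcl1 and Pmaip1 rose at 10 to 12 h in C57BL/6 and by 12 h in AKR/N, Aifm1 rose and Bcl2l1 fell by 24 h in both strains, and in C57BL/6 Casp2 rose at 12 h and Bid at 24 h. The rise of Mcl1 was not called on its brightest probe set, 1416881_at. The fall of Bcl2l1 was called on its brightest, 1420888_at, and not on its other tested probe sets, 1420887_a_at and 1426191_a_at. At 8 h none of the 23 probe sets was called in either strain, where limma called 0.0893% of all probe sets in C57BL/6 and 0.121% in AKR/N. At an unadjusted p below 0.05 in limma there were 2 and 1, and over all 28000 probe sets 2080 and 2941.

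In C57BL/6, 5 of the 23 were called higher and none lower at 10 h, where 4.05% of all probe sets were called higher. At 12 h 7 were higher and none lower, against 7.61% of all probe sets higher. Of all 28000 probe sets, 881 were called lower at 10 h and 1970 at 12 h. At 24 h 6 were higher and 1 lower, where 17.9% of all probe sets were called higher and 13.1% lower. In AKR/N, 3 were called higher at 10 h against 2.67% of all probe sets, and 5 at 12 h against 3.14%, with none lower at either time. Of all 28000 probe sets, 320 and 587 were called lower in AKR/N at these times. At 24 h in AKR/N 3 were higher against 10.6%, and 1 was lower against 7.6%. The median log2 change over the 23 was 0.28, 0.31 and 0.28 at 10, 12 and 24 h in C57BL/6, and 0.01, 0.06 and 0.09 over all probe sets. In AKR/N the medians of the 23 were 0.16, 0.12 and 0.09, and those of all probe sets 0, 0 and 0.02. Several probe sets read the same gene, above all Mcl1, so these counts are not counts of independent genes. In genes, 2, 3 and 3 were called higher at 10, 12 and 24 h in C57BL/6 and 1, 2 and 2 in AKR/N. In each strain 1 was called lower at 24 h. A gene was counted if any of its probe sets was called, and the share of all genes counted so was not worked out.

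**Figure D1:**
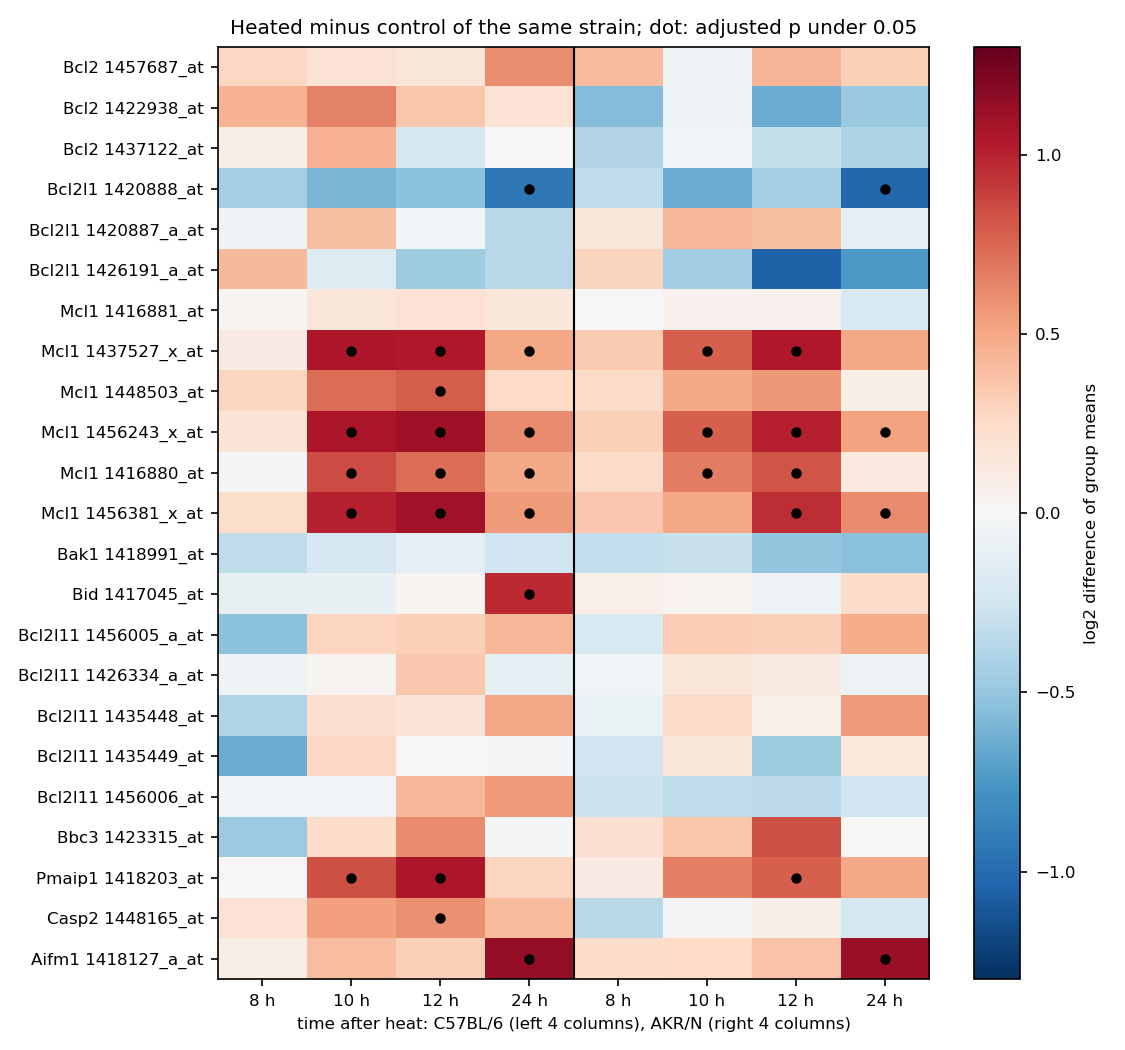
Log2 change against the unheated control of the same strain for the 23 tested probe sets (rows) at 8, 10, 12 and 24 h in C57BL/6 and AKR/N (columns), from 2 arrays per group. Dots mark changes called by limma at an adjusted p below 0.05; the called changes at 10 and 12 h are in Mcl1, Pmaip1 and Casp2, those at 24 h in Mcl1, Bcl2l1, Bid and Aifm1, and there are none at 8 h.

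Among the genes that hold death back, Mcl1, whose protein is short-lived and has to be made anew to last, about doubled at 10 and 12 h in C57BL/6 on 3 of its 6 probe sets. These 3 carry the suffix _x, explained below. Of the other 3, 1416880_at rose by less and 1448503_at was called at 12 h in C57BL/6 alone. The brightest on average, 1416881_at, was not called after heat in either strain. At 24 h 4 probe sets were still called higher in C57BL/6 and 2 in AKR/N. On probe set 1437527_x_at the C57BL/6 signals were 322 and 353 in controls, 378 and 355 at 8 h, 733 and 703 at 10 h, 600 and 844 at 12 h, and 473 and 493 at 24 h. In AKR/N the same probe set gave 368 and 320, 397 and 482, 640 and 562, 843 and 620, and 494 and 492. In both strains every heated array lay above both controls, and the arrays at 10 and 12 h lay above all those at 8 h and 24 h of the same strain. In C57BL/6 the difference in log2(signal + 16) was 1.05 at 10 h (SE 0.18, limma adjusted p = 0.00543), a 2.08-fold higher level, and 1.04 at 12 h (SE 0.18, limma adjusted p = 0.0025). In AKR/N it was 0.78 at 10 h (limma adjusted p = 0.0321) and 1.04 at 12 h (limma adjusted p = 0.00629). At 24 h the change of 0.50 was called in C57BL/6 at an adjusted p of 0.0494 in limma and not in AKR/N, at 0.0671.

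Probe set 1456243_x_at of Mcl1 gave 291 and 275 in C57BL/6 controls, 317 and 329 at 8 h, 593 and 622 at 10 h, 534 and 727 at 12 h, and 438 and 445 at 24 h. Its AKR/N signals were 326 and 268, 347 and 394, 559 and 481, 678 and 554, and 425 and 439. The order was the same as on the previous probe set, lowest in controls and highest at 10 to 12 h, and no heated array fell within the range of its controls. Its changes at 10, 12 and 24 h were 1.06, 1.10 and 0.61 in C57BL/6 and 0.78, 1.01 and 0.52 in AKR/N, with an SE of 0.16, and limma called all 6. This was the only one of the 6 probe sets with a call at all of these times in both strains. The suffix _x marks probes that are also close to other sequences, so the level on such a probe set may not be that of Mcl1 alone.

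Of the Mcl1 probe sets without that suffix, 1416880_at gave 294 and 264 in C57BL/6 controls, 255 and 295 at 8 h, 523 and 503 at 10 h, 439 and 507 at 12 h, and 398 and 398 at 24 h. In AKR/N its signals were 330 and 271, 323 and 398, 540 and 434, 579 and 501, and 313 and 344. The arrays at 10 and 12 h lay above every control and every 8 h array, whereas the AKR/N arrays at 24 h overlapped their controls. Limma called it higher at 10 and 12 h in both strains, by 0.85 and 0.73 in C57BL/6 and 0.67 and 0.82 in AKR/N (SE 0.16), and at 24 h in C57BL/6 by 0.49 (adjusted p = 0.0311). In AKR/N the change at 24 h was 0.13 (limma adjusted p = 0.624), and the 24 h level was lower than the mean of 8, 10 and 12 h by -0.45 (SE 0.13, limma adjusted p = 0.0266). The last call was lost without the second array at 8 h, the first at 12 h or either at 24 h, with adjusted p-values of 0.0571, 0.0517, 0.18 and 0.129 in limma.

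Probe set 1456381_x_at of Mcl1 gave 205 and 198 in C57BL/6 controls, 218 and 260 at 8 h, 407 and 432 at 10 h, 376 and 527 at 12 h, and 303 and 302 at 24 h. Its AKR/N signals were 229 and 203, 253 and 308, 322 and 301, 483 and 387, and 313 and 364. Here the AKR/N arrays at 10 h overlapped those at 8 h, and only those at 12 h stood clear of all others. Limma called it at 10, 12 and 24 h in C57BL/6, with log2 changes of 1.0, 1.09 and 0.55, and at 12 and 24 h in AKR/N, with 0.96 and 0.61 (SE 0.17). The AKR/N change at 10 h was 0.50 (limma adjusted p = 0.131).

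The other 2 Mcl1 probe sets moved less. On 1448503_at the C57BL/6 signals were 318 and 325 in controls, 354 and 435 at 8 h, 534 and 554 at 10 h, 444 and 723 at 12 h, and 390 and 385 at 24 h, and those of AKR/N were 422 and 345, 394 and 529, 600 and 500, 623 and 521, and 396 and 422. Its arrays at 10 and 12 h lay above all others in C57BL/6 and overlapped those at 8 h in AKR/N. Only its 12 h change in C57BL/6 was called, 0.79 (SE 0.21, limma adjusted p = 0.0241), and the 10 h change of 0.73 was not (adjusted p = 0.0523). On 1416881_at the C57BL/6 signals were 534 and 526, 547 and 537, 602 and 588, 601 and 615, and 586 and 597 in the same order, and those of AKR/N 548 and 476, 498 and 523, 540 and 524, 526 and 539, and 438 and 446. This probe set stayed within a narrow band, and limma called no heat change on it, with log2 changes from -0.20 to 0.19. Probe sets of the same gene thus disagreed: 1416881_at had 95% intervals of -0.08 to 0.40 at 10 h and -0.05 to 0.43 at 12 h in C57BL/6, below the changes on 1437527_x_at, 1456243_x_at and 1456381_x_at.

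**Figure D2:**
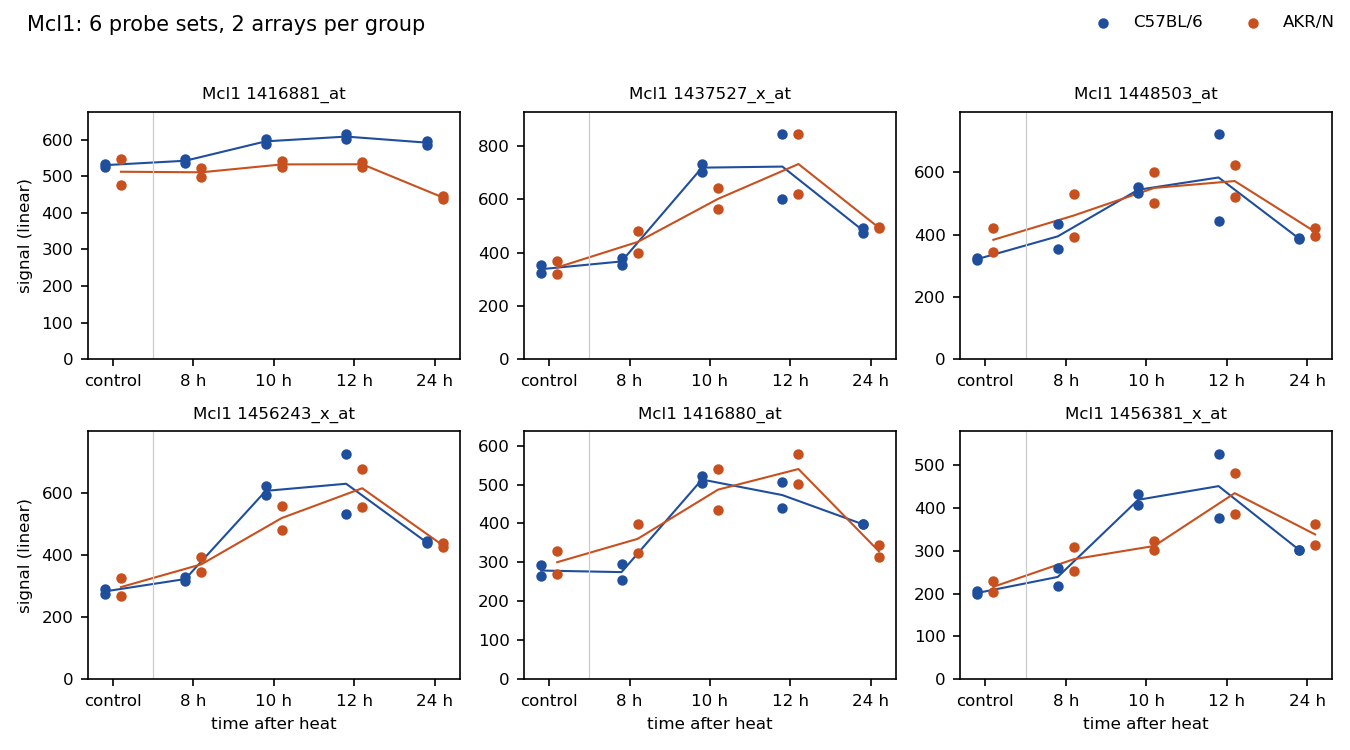
Signal on a linear scale of the 6 Mcl1 probe sets in unheated controls and 8, 10, 12 and 24 h after heat (times evenly spaced, not to scale); points are arrays, 2 per group, and lines join the group means of C57BL/6 and AKR/N. On 1437527_x_at all arrays at 10 and 12 h lie between 562 and 844, above the controls at 320 to 368, while 1416881_at stays between 438 and 615.

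The high Mcl1 signals at 12 h in C57BL/6 rest in part on the second array. Without it the log2 changes were 0.80 on 1437527_x_at, 0.88 on 1456243_x_at and 0.85 on 1456381_x_at, and limma still called these 3 (adjusted p = 0.0259, 0.0119 and 0.017). The change on 1416880_at was then 0.63 (adjusted p = 0.0686 in limma) and that on 1448503_at 0.45 (adjusted p = 0.222), and neither was called. With 2 arrays a group, leaving out an array of a contrast also ended other calls. At 12 h in AKR/N, leaving out the first 12 h array ended all 4 Mcl1 calls (limma adjusted p from 0.0624 to 0.108). At 10 h in AKR/N, leaving out any of the 4 arrays of the contrast ended all 3, with adjusted p-values in limma from 0.0511 to 0.221. All 6 calls at 24 h, in both strains, were lost on leaving out either 24 h array or a control of the strain, with the exceptions of 1456243_x_at in C57BL/6 without its first control and 1456381_x_at in AKR/N without the first 24 h array, and the adjusted p-values then ranged from 0.0519 to 0.219. Median centring ended the 24 h calls on 1437527_x_at, 1456381_x_at and 1416880_at in C57BL/6 (limma adjusted p = 0.103, 0.0612 and 0.0929). At 10 h in C57BL/6 the call on 1456243_x_at was kept on leaving out each of the 20 arrays in turn. That on 1416880_at was lost without any 1 of the 4 arrays of the contrast, with log2 changes from 0.77 to 0.92. The call on 1437527_x_at was lost without the first control (0.99) and that on 1456381_x_at without the second (0.98).

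Bcl2l1, whose longer product BCL-XL blocks the pore formers, moved the other way from Mcl1. On probe set 1420888_at the C57BL/6 signals were 375 and 448 in controls, 348 and 253 at 8 h, 261 and 272 at 10 h, 263 and 297 at 12 h, and 210 and 205 at 24 h. In AKR/N they were 472 and 412, 335 and 362, 269 and 287, 346 and 299, and 258 and 171. Every heated array was below both controls of its strain, and the 24 h arrays were the lowest in each. The level fell by 24 h by 0.93 on the log2 scale in C57BL/6 (SE 0.19, limma adjusted p = 0.00201), to 0.525 of the control, and by 1.02 in AKR/N (SE 0.19, limma adjusted p = 0.00327), to 0.495. At 10 h the changes were -0.59 and -0.64 and were not called (adjusted p = 0.0727 and 0.0777 in limma). The AKR/N call at 24 h was lost without the second 24 h array, which was the lower one, when the change was -0.74 (limma adjusted p = 0.0568).

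The 24 h level of this Bcl2l1 probe set was also below the mean of 8, 10 and 12 h, a comparison that leaves the controls out, by -0.55 in AKR/N (SE 0.15, limma adjusted p = 0.023). Without the second 24 h array that difference was -0.27 (limma adjusted p = 0.431). In C57BL/6 it was -0.41 (SE 0.15, limma adjusted p = 0.0739), not called. The other tested Bcl2l1 probe sets followed another course. On 1420887_a_at, which ranged from 19.5 to 49.8, the C57BL/6 signals at 10 h were 49.8 and 41.4 against 28.3 and 33.5 in controls, and at 24 h 21.8 and 19.5. Its log2 changes were 0.39 at 10 h and -0.36 at 24 h in C57BL/6 and 0.43 and -0.13 in AKR/N, none called by limma (adjusted p from 0.213 to 0.70). On 1426191_a_at, between 1.9 and 38.2, the 12 h change in AKR/N was -1.05 (SE 0.39, limma adjusted p = 0.131), with 6.04 and 3.22 against 22 and 31.6 in controls.

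Bcl2, the founding member of the family and a block on the pore formers like BCL-XL, gave low signals on all 5 of its probe sets. On 1457687_at the C57BL/6 signals were 21.7 and 13.7 in controls, 23.2 and 25.6 at 8 h, 26 and 18.9 at 10 h, 29.4 and 14.9 at 12 h, and 31.3 and 38.5 at 24 h. The AKR/N arrays gave 33.7 and 17.4, 35.6 and 40.4, 19.9 and 26.8, 30.8 and 49.7, and 33.8 and 35.4. The 24 h arrays were above the controls in both strains, by little in AKR/N. The changes of 0.60 in C57BL/6 (SE 0.23, limma adjusted p = 0.0656) and 0.31 in AKR/N (limma adjusted p = 0.384) were not called. The other tested Bcl2 probe sets, 1422938_at and 1437122_at, lay between 1.52 and 33.1 on all arrays, and no comparison was called on them.

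Bak1, which encodes a pore former of the outer mitochondrial membrane, was not called in any comparison. On probe set 1418991_at the C57BL/6 signals were 53 and 34.8 in controls, 31.3 and 31.1 at 8 h, 32.5 and 37.6 at 10 h, 35 and 41.5 at 12 h, and 33.3 and 33.2 at 24 h. Those of AKR/N were 45.9 and 48.7, 40.2 and 29.6, 45.3 and 27.8, 21.9 and 36.3, and 23.1 and 32.7. All 8 heated AKR/N arrays were below both controls, whereas in C57BL/6 the second control lay within the heated arrays. The mean heat effect over the 4 times was -0.41 in AKR/N (SE 0.16, 95% interval -0.77 to -0.06, limma adjusted p = 0.17) and -0.23 in C57BL/6 (limma adjusted p = 0.382).

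Of the BH3-only genes, Pmaip1 rose at 10 and 12 h in C57BL/6 and at 12 h in AKR/N. NOXA, its product, binds MCL1 in particular. The C57BL/6 signals of 1418203_at were 35.4 and 34.2 in controls, 29.6 and 39.5 at 8 h, 91.4 and 59.6 at 10 h, 89.5 and 88.9 at 12 h, and 44 and 47.6 at 24 h. AKR/N arrays gave, in the same order, 42.2 and 35.7, 34.2 and 54.3, 73.7 and 67.8, 81.1 and 75.2, and 67.6 and 54.6. The 8 h arrays overlapped the controls in both strains, and the arrays at 10 and 12 h lay above all of them. In C57BL/6 the log2 change was 0.83 at 10 h (SE 0.19, limma adjusted p = 0.0202) and 1.05 at 12 h (SE 0.19, limma adjusted p = 0.00308), or 1.78-fold and 2.07-fold, and 0.28 at 24 h (limma adjusted p = 0.289). In AKR/N it was 0.66 at 10 h (limma adjusted p = 0.0694), 0.78 at 12 h (limma adjusted p = 0.0313) and 0.49 at 24 h (limma adjusted p = 0.0906), of which 12 h was called. The C57BL/6 call at 12 h held without the second array of that group, at 1.06 (limma adjusted p = 0.0199), and under every alternative tried. The AKR/N call at 12 h was lost without any 1 of the 4 arrays of the contrast (limma adjusted p from 0.0728 to 0.163) and with median centring (0.0502). The C57BL/6 call at 10 h was lost without the first 10 h array, at 0.58 (limma adjusted p = 0.155), or either control (adjusted p = 0.10 and 0.111).

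Bid, whose protein is cut by caspase 8 and links death receptors to mitochondria, was raised at 24 h in C57BL/6. Its tested probe set, 1417045_at, gave 45.4 and 36.9 in C57BL/6 controls, 40.9 and 33.6 at 8 h, 43.7 and 31.4 at 10 h, 49.5 and 36.5 at 12 h, and 102 and 90.1 at 24 h. In AKR/N it gave 30.5 and 30.9, 32 and 34.1, 32.5 and 32.3, 22.5 and 35.4, and 40 and 38.3. Both C57BL/6 arrays at 24 h were far above the other 8 of that strain, which overlapped one another, and the AKR/N arrays at 24 h were above the other AKR/N arrays by a small margin. The log2 change at 24 h was 0.97 in C57BL/6 (SE 0.17, limma adjusted p = 0.000728), a 1.96-fold higher level, and 0.24 in AKR/N (SE 0.17, 95% interval -0.13 to 0.61, limma adjusted p = 0.357). Against the mean of 8, 10 and 12 h the C57BL/6 level at 24 h was higher by 1.03 (SE 0.14, limma adjusted p = 0.000247). Both C57BL/6 calls held under every alternative.

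The difference between the strains in the 24 h effect of heat on Bid was -0.73 (AKR/N minus C57BL/6, SE 0.24, 95% interval for this probe set alone -1.25 to -0.22) and did not pass in limma (adjusted p = 0.147). Bid was lower in AKR/N over all conditions together, by -0.39 (SE 0.08, limma adjusted p = 0.00182), where limma called 10.1% of all probe sets lower in AKR/N and 2 of the 23 members. That difference averages the 5 conditions, with 24 h among them. In the controls it was -0.29 (SE 0.17, limma adjusted p = 0.411). Every AKR/N control was below every C57BL/6 control.

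Bcl2l11 encodes BIM, a BH3-only protein that binds all the death-blocking members of the family. No comparison was called on any of its 5 tested probe sets. On 1456005_a_at the C57BL/6 signals were 104 and 126 in controls, 76.6 and 71.3 at 8 h, 147 and 138 at 10 h, 111 and 189 at 12 h, and 154 and 164 at 24 h. In AKR/N they were 129 and 114, 86.5 and 123, 203 and 119, 202 and 117, and 167 and 183. The 8 h arrays were the lowest in C57BL/6 and the 24 h arrays above the controls in both strains, but the changes at 24 h, 0.43 and 0.48 (SE 0.27), did not pass (limma adjusted p = 0.268 and 0.252).

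Of the 5 Bcl2l11 probe sets, 1435449_at had the largest change at 8 h in C57BL/6. Its signals were 15 and 11.1 against 28.5 and 30 in controls, 37.9 and 39 at 10 h, 28.8 and 30.6 at 12 h, and 29.9 and 27.1 at 24 h. The AKR/N signals there were 37.1 and 28.9 in controls, 19.4 and 31.5 at 8 h, 46.1 and 31.9 at 10 h, 21.9 and 17.2 at 12 h, and 32.9 and 43.2 at 24 h. The C57BL/6 arrays at 8 h lay below all others of that strain, but their change of -0.64 (SE 0.17) was not called by limma (adjusted p = 0.327), nor were those of -0.53 on 1456005_a_at (adjusted p = 0.721) and -0.39 on 1435448_at (adjusted p = 0.801). Over all 10 groups at once the moderated F-test of limma gave 1435449_at an adjusted p of 0.00868. That test spans both strains and all times and does not single out 8 h. The share of all probe sets passing it was not worked out. On 1435448_at the 8 h signals in C57BL/6 were 46 and 37.9 against 52.3 and 67.4 in controls. On 1426334_a_at, from 67.3 to 126, and 1456006_at, from 4.43 to 29.3, the 8 h changes in C57BL/6 were -0.06 and -0.04.

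Bbc3 encodes PUMA, a BH3-only protein induced by p53. On 1423315_at the C57BL/6 signals were 58.3 and 47.4 in controls, 29.9 and 37.6 at 8 h, 52.9 and 79.6 at 10 h, 59.8 and 130 at 12 h, and 56.2 and 47.5 at 24 h. The AKR/N arrays gave 20.5 and 41.8, 38.8 and 36.3, 50.6 and 36.5, 82.1 and 51.9, and 25.2 and 36.3. The 12 h arrays were above the controls in both strains, with 1 C57BL/6 array far above the other. The changes of 0.61 in C57BL/6 (SE 0.30, limma adjusted p = 0.191) and 0.83 in AKR/N (SE 0.30, limma adjusted p = 0.123) were not called. Without the second C57BL/6 array at 12 h, which gave 130, the C57BL/6 change was 0.14 (limma adjusted p = 0.835), and without the first, which gave 59.8, it was 1.09 and called (limma adjusted p = 0.0348). Over all 10 groups at once the moderated F-test of limma gave Bbc3 an adjusted p of 0.0424, without singling out a time or strain.

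**Figure D3:**
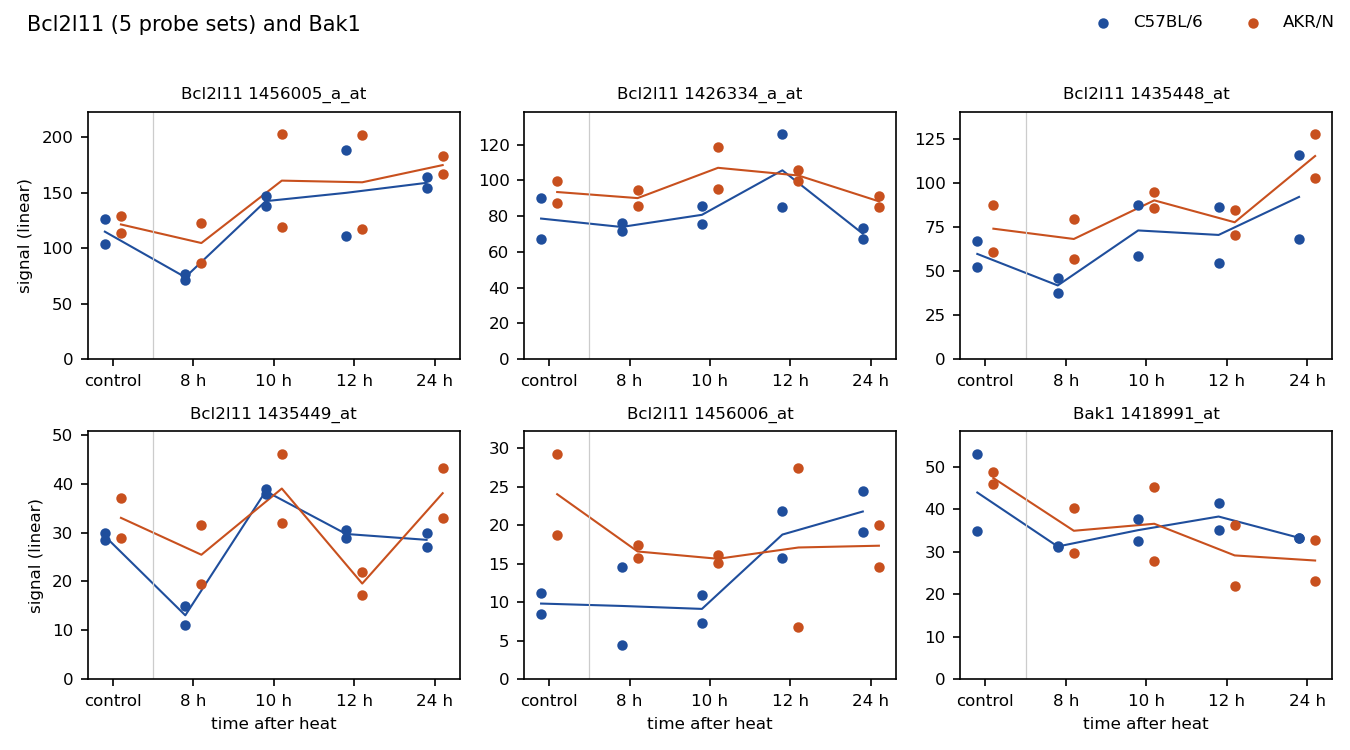
Signal on a linear scale of the 5 tested Bcl2l11 probe sets and of Bak1 in controls and at each time after heat (times evenly spaced, not to scale); points are arrays, 2 per group, and lines join the group means of C57BL/6 and AKR/N. On 1435449_at the C57BL/6 arrays at 8 h lie at 15 and 11.1 below controls at 28.5 and 30; no change in this plot was called.

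Aifm1, which encodes a flavoprotein of the mitochondrial intermembrane space that supports the respiratory chain and can move to the nucleus in dying cells, doubled by 24 h in both strains. On 1418127_a_at the C57BL/6 signals were 93.5 and 72.1 in controls, 89.7 and 87.6 at 8 h, 117 and 110 at 10 h, 127 and 87.6 at 12 h, and 193 and 207 at 24 h. Those of AKR/N were 88.2 and 91.4, 122 and 97.4, 111 and 110, 114 and 128, and 218 and 209. In each strain both 24 h arrays were above all other 8 arrays by a wide margin. The log2 change at 24 h was 1.14 in C57BL/6 (SE 0.16, limma adjusted p = 0.000178), a 2.20-fold higher level, and 1.12 in AKR/N (SE 0.16, limma adjusted p = 0.000976), 2.17-fold. Against the mean of 8, 10 and 12 h it was 0.87 (SE 0.13, limma adjusted p = 0.00055) and 0.83 (SE 0.13, limma adjusted p = 0.00119). The strains differed in the 24 h effect by -0.02 (AKR/N minus C57BL/6, 95% interval -0.52 to 0.48). These 4 Aifm1 calls held under every alternative.

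Among the member probe sets with the highest mean of their gene, Aifm1 had the largest moderated F over the 10 groups, 13, so its course was compared with those of other genes. Over the 10 group means of log2 signal, the genes most like it were Gnai1 and Rcn1 (Pearson r = 0.988 each), Col4a5 (0.983), Smpx (0.977) and Cr1l (0.975). As many as 328 of 15761 genes reached r = 0.9, and all these values share the same 20 arrays. The 24 h groups, where Aifm1 signals were highest, were also those in which the Sertoli cell and macrophage marker sums of each strain were highest. The Sertoli cell sum was mostly Clu. The part of these sums in the likeness was not tested.

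Casp2 encodes an initiator caspase with a part in stress responses. Its signals on 1448165_at were 52.2 and 48.4 in C57BL/6 controls, 65.8 and 54.1 at 8 h, 75.9 and 84 at 10 h, 87.9 and 79.3 at 12 h, and 73.2 and 71 at 24 h. AKR/N arrays gave, in the same order, 90.8 and 73.3, 49.2 and 73, 76.7 and 84.2, 93.1 and 81.4, and 71.7 and 63. In C57BL/6 all heated arrays lay above both controls, while in AKR/N the controls lay among the heated arrays and above the C57BL/6 controls. The C57BL/6 change at 12 h was 0.59 (SE 0.16, limma adjusted p = 0.0266) and was called; those at 10 and 24 h were 0.53 and 0.41 (adjusted p = 0.0608 and 0.0684 in limma). The call at 12 h was lost with median centring (0.46, adjusted p = 0.108), without the second 12 h array (0.65, limma adjusted p = 0.0665) and without the first 12 h array or either control (adjusted p = 0.0979, 0.0853 and 0.142).

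The mean heat effect on Casp2 over the 4 times was 0.43 in C57BL/6 (SE 0.13, limma adjusted p = 0.0341) and -0.13 in AKR/N (SE 0.13, limma adjusted p = 0.599). The C57BL/6 call was lost with median centring (limma adjusted p = 0.096), with quantile normalization (0.0554) and without the first 8 h array, the second 10 h array, the first 24 h array or either control (0.0603, 0.0555, 0.0558, 0.144 and 0.252). The difference between the strains was -0.56 (SE 0.18, 95% interval for this probe set alone -0.95 to -0.18) and did not pass in limma (adjusted p = 0.236). In the controls Casp2 was higher in AKR/N by 0.56 (SE 0.16, limma adjusted p = 0.067), short of the threshold. The same C57BL/6 controls enter both of these differences.

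**Figure D4:**
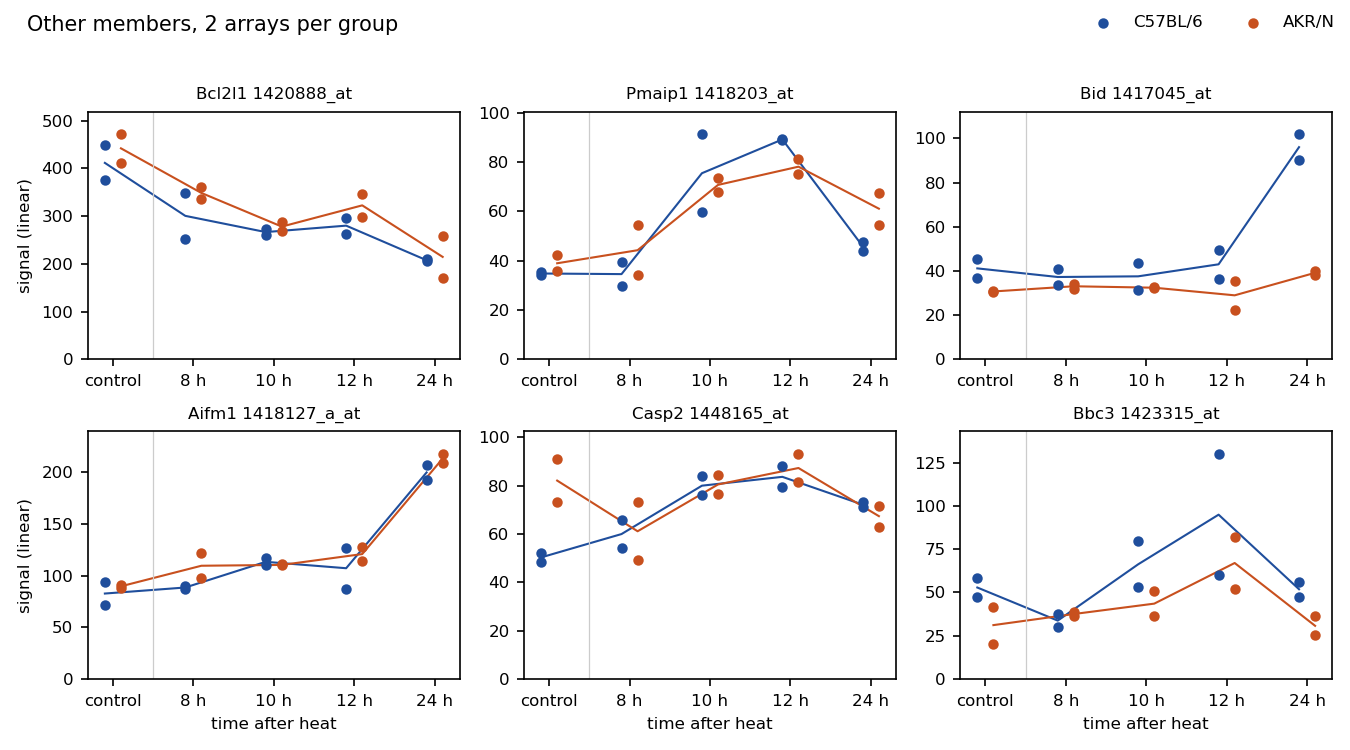
Signal on a linear scale of Bcl2l1, Pmaip1, Bid, Aifm1, Casp2 and Bbc3, each on the probe set with the highest mean, in controls and at each time after heat (times evenly spaced, not to scale); points are arrays, 2 per group, and lines join the group means of C57BL/6 and AKR/N. Bid at 24 h is 102 and 90.1 in C57BL/6 and 40 and 38.3 in AKR/N, whereas Aifm1 reaches 193 to 218 in both.

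Between the strains, none of the 23 probe sets was called in the controls, where limma called 4.78% of all probe sets. An unadjusted p below 0.05 in limma was reached there by 2 of the 23 and by 5074 of all 28000. Over all conditions together 2 were lower in AKR/N, Bid and Mcl1 on 1416881_at, the latter by -0.18 (SE 0.05, limma adjusted p = 0.0205). The other 5 Mcl1 probe sets differed between the strains by -0.01 to 0.11, none called. The difference between the strains in the effect of heat was called for none of the 23, averaged over times or at 8, 10, 12 or 24 h, and limma called 0.00357%, 0%, 0.118%, 0% and 0.775% of all probe sets in these comparisons. At an unadjusted p below 0.05 in limma there were 1, 1, 1, 1 and 4 members. Over all 28000 probe sets tested there were 3443, 1741, 3488, 2548 and 4763. For Mcl1 on 1456243_x_at the strain difference in the 12 h effect was -0.08 (95% interval -0.58 to 0.41), and for Bcl2l1 on 1420888_at in the 24 h effect -0.08 (95% interval -0.66 to 0.49), intervals that leave room for a difference of either sign.

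Averaged over the 4 times, 7 probe sets were called higher and 1 lower in C57BL/6, where limma called 8.45% of all probe sets higher and 7.46% lower. In AKR/N 4 were higher and 1 lower, against 2.56% and 1.34%. In both strains Mcl1 and Aifm1 were among those higher and Bcl2l1 was the lower one. Without the second C57BL/6 control none of the C57BL/6 calls held, and without either AKR/N control none of the AKR/N calls did. The AKR/N call on Aifm1 (0.50, limma adjusted p = 0.0486) was kept in 5 of 28 alternatives and that on Bcl2l1 (-0.60, limma adjusted p = 0.0399) in 11 of 28. Both were lost with a pseudocount of 4, with no filter and with median centring, and the Aifm1 call also with quantile normalization and the replicate block. In the comparison of 24 h with the earlier times after heat, Bid and Aifm1 were higher in C57BL/6, where 13.5% of all probe sets were. In AKR/N Aifm1 was higher and Bcl2l1 and Mcl1 (1416880_at) lower, against 11.7% and 8.11% of all probe sets.

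The 6 probe sets left untested were dim in every group. They were 1443837_x_at and 1440770_at of Bcl2, with signals of 0.386 to 21.2, 1426050_at of Bcl2l1, from 1.2 to 23.1, 1425716_s_at of Bak1, from 2.18 to 14.7, and 1447873_x_at and 1448560_at of Bid, from 0.855 to 25. On the dim Bid probe sets the C57BL/6 arrays at 24 h gave 9.61 and 15.1, and 1.2 and 1.34, so that the rise of Bid rests on 1417045_at.

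Further genes of the same pathways, also listed with earlier results of these data known, were read on the probe set with the highest mean of each. Of 17 other BCL2 family genes 11 were tested, and at 24 h 4 were higher and 2 lower in C57BL/6 and 2 higher and 3 lower in AKR/N. Over all probe sets at that time 17.9% were called higher and 13.1% lower in C57BL/6, and 10.6% and 7.6% in AKR/N. Bad, a BH3-only gene, was lower by -1.48 (SE 0.20) in C57BL/6 and -1.02 in AKR/N, and Bcl2l12 by -1.39 (SE 0.18) and -1.13, all called by limma. Bcl2l14 was higher by 0.78 (SE 0.11) and 0.47, and Bnip3, which acts in mitophagy and is induced by low oxygen, by 0.67 (SE 0.14) and 0.90, also called. Bad and Bcl2l12 were already lower at 10 and 12 h in C57BL/6, and the call on Bad was lost at 10 h with median centring (limma adjusted p = 0.0634) and at 12 h without the second array of that group (limma adjusted p = 0.0603). Bax and Bnip3l, among others, were not analysed here.

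Of 23 genes of the apoptosome, caspases and mitochondrial proteins 21 were tested, and at 24 h 8 were higher and 4 lower in C57BL/6 and 5 higher and 1 lower in AKR/N, against the same shares of 17.9% and 13.1%, and 10.6% and 7.6%. Apaf1, the scaffold of the apoptosome, was higher by 1.14 (SE 0.21) and 0.83, and Cycs, the cytochrome c of somatic cells, by 0.83 (SE 0.14) and 0.80, all called by limma. Cyct, the testis form of cytochrome c, was lower by -1.60 in C57BL/6 (SE 0.15, limma adjusted p = 9.38e-06) and not called in AKR/N, at -0.38 (limma adjusted p = 0.0903). The difference between the strains was called for Cyct, at 1.22 (AKR/N minus C57BL/6, SE 0.21, limma adjusted p = 0.028), and was lost with median centring (adjusted p = 0.0517). Diablo, whose protein lifts the block on caspases, was lower by -1.32 in C57BL/6 (SE 0.17, limma adjusted p = 7.99e-05) and by -0.48, not called, in AKR/N (limma adjusted p = 0.0644). The 4 genes called higher in this list at 12 h in C57BL/6 were 0 with median centring and 1 without the second array of that group.

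Of 11 death receptor genes 9 were tested, and 5 were higher at 24 h in C57BL/6 and 2 in AKR/N, with none lower. Over all probe sets 17.9% and 10.6% were called higher there, and 13.1% and 7.6% lower. Fas, the receptor itself, was higher by 1.27 in C57BL/6 (SE 0.26, limma adjusted p = 0.00206) against 0.41 in AKR/N (limma adjusted p = 0.297), and the difference between the strains was not called (-0.86, limma adjusted p = 0.251). Ripk3 and Mlkl, which carry out necroptosis, were higher by 1.02 (SE 0.16) and 1.18 (SE 0.23) in C57BL/6 and by 0.68 and 0.77 in AKR/N, all called by limma. The medians of the tested genes at 24 h were 0.72 and 0.41 for this list, 0.32 and 0.19 for the apoptosome list and 0.23 and 0.06 for the family, in C57BL/6 and AKR/N, against 0.09 and 0.02 over all probe sets.

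Of 8 upstream regulators 7 were tested. Jun, a part of AP-1, was the only gene of these lists called at 8 h, higher by 1.98 in C57BL/6 (SE 0.33, limma adjusted p = 0.0375) and 1.90 in AKR/N (limma adjusted p = 0.0476). Atf4, which drives the integrated stress response, was higher by 0.77 at 10 h in C57BL/6 (SE 0.19, limma adjusted p = 0.0267) and by 0.85 in AKR/N (limma adjusted p = 0.0272). Mdm2, a target and brake of p53, was higher by 0.56 at 10 h in C57BL/6 (SE 0.15, limma adjusted p = 0.0404), a call lost with median centring (adjusted p = 0.0536). Ddit3, a death-promoting factor of the unfolded protein response, was lower at 24 h by -0.68 (SE 0.15) in both strains, called in both by limma.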

How the data were processed

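RNA of 20 testis samples was measured on arrays. The authors deposited 1 table of probe-set signals, in the unit intensity on a linear scale. The software behind them is not given in the sources used here, and the arrays had been scaled alike, since after dropping 2% of values at each end they all had a mean of 125.001. Of 45101 probe sets, 64 controls were left out, and 34945 had 1 gene, 932 several and 9160 none in the chip annotation. Values were analysed as log2(signal + 16), which understates changes of dim probe sets. A probe set was tested if 1 of its 10 group means was at least 5.07 (a signal of 17.5), the 40th percentile of the means of the non-control probe sets. This left 28000 probe sets of 15785 genes.

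Using all 20 arrays, group means were fitted with limma 3.58.1 in R 4.3.3 (residual degrees of freedom 10, prior 3.84), and p-values were adjusted by Benjamini-Hochberg over all probe sets tested. Plots used matplotlib 3.10.9 in Python 3.11.15. Every tested probe set of the 10 genes is described. The members and the lists of further genes and cell markers were chosen with earlier results of these data known. From each further list up to 4 genes are named, those with the smallest adjusted p in the mean heat effect of both strains. Replicate numbers did not pair arrays across groups: deviations of same-numbered arrays correlated from -0.24 to 0.25 in 45 pairs of groups, and 3 exceeded 0.1. On simulated data with the groups of the 24 h comparison in C57BL/6, over 28000 probe sets, 100%, 44% and 8% of changes of 2, 1 and 0.5 on the log2 scale were called. For changes of -1 it was 56%, and 9 unchanged probe sets were called. Only 50 probe sets were changed at each size, far fewer than the 5019 higher and 3670 lower called in the data. The adjustment depends on how many change, so these shares need not hold for the data. The number of arrays limits the precision. Alternatives were the pseudocount, the filter, 2 scalings, 1 probe set per gene, an intensity trend, the replicate number as a block, and leaving out each array. Promoter sequences are from the RefSeq table of GRCm38.p6. No genome coordinates of probe sets were used, and protein sequences were not analysed here.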

Additional observations from a re-analysis of the deposited data

How the results depend on the processing

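Of 51 calls on the member probe sets over all comparisons, 14 held under every alternative and 0 reversed direction; 11 were lost under an alternative other than leaving out an array, and 37 on leaving out some array. Pmaip1 at 12 h, Bid, Aifm1 and Bcl2l1 at 24 h in C57BL/6 and Aifm1 at 24 h in AKR/N are among the 14. Counts of members called stayed within 1.5 times of those reported except as follows. For the mean heat effect in AKR/N, 3 were called with a pseudocount of 4 and 3 with no filter. Median centring gave 4 at 24 h in C57BL/6, 5 for the mean heat effect and 4 for 24 h against the earlier times; quantile normalization gave 4 for the last. With 1 probe set per gene, and so 10 member probe sets tested, 2, 2 and 3 were called at 10, 12 and 24 h in C57BL/6, 0, 1 and 2 in AKR/N, 4 and 2 for the mean heat effects in C57BL/6 and AKR/N, and 1 between strains in controls. In that setting Mcl1 was read on 1416881_at alone and was not called against the controls in either strain. The share of all genes called in that setting is not reported here. With median centring the median over all probe sets at 24 h in C57BL/6 went from 0.09 to -0.04, and their calls from 5019 higher and 3670 lower to 3348 and 4180. At 12 h it moved them from 2130 and 1970 to 1116 and 2273, for the mean heat effect from 2367 and 2090 to 1479 and 1981, and for 24 h against the earlier times from 3782 and 2449 to 2254 and 2805. The cause was not tested. The alternatives for the further genes, 2 scalings and leaving out the second C57BL/6 array at 12 h, were chosen after seeing the data.

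On leaving out each array in turn, members called ranged from 0 to 0, 2 to 6, 4 to 8 and 3 to 8 at 8, 10, 12 and 24 h in C57BL/6, from 0 to 0, 0 to 3, 0 to 5 and 1 to 5 in AKR/N, and from 0 to 9 and 0 to 5 for the mean heat effects. They ranged from 0 to 1 between strains in controls, 2 to 4 over all conditions, 0 to 0 for the differences in the heat effect, and 2 to 4 and 1 to 4 for 24 h against the earlier times in C57BL/6 and AKR/N. For most comparisons with the controls, calls over all probe sets also varied widely with the array left out, so such ranges were not seen in the members alone. With the replicate number as a block, 3 calls were lost: Mcl1 1437527_x_at at 24 h in C57BL/6 (limma adjusted p = 0.0619), Mcl1 1456243_x_at at 24 h in AKR/N (0.0511) and Aifm1 in the mean heat effect in AKR/N (0.0534). No other call changed with the block.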
